A study of Mus musculus with 16 samples.

Results

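The 5 miRNAs described here, mmu-miR-140-3p, mmu-miR-186-5p, mmu-miR-340-5p, mmu-miR-28a-3p and mmu-miR-378a-3p (written without the species prefix from here on), are mature products of hairpins that each lie in an intron of a protein-coding gene and were read as single, unclustered hairpins. They were taken by name from the 1978 mature mouse miRNA names that every count file lists. They were chosen by gene structure with the counts of these 16 libraries, and results drawn from them, already in view, and no threshold or contrast is stated for the choice. The levels below are therefore a description, and the adjusted p-values given with them place each miRNA within a test over all names and are not independent evidence. The 5 names held 2277 of the 122251 counts of the series.

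The libraries are small RNA libraries from mouse blastocysts that were cut with a laser into a polar fragment, which holds the inner cell mass, and a mural fragment of trophectoderm. The 6 groups were polar and mural fragments of blastocysts diapaused in vivo at EDG 7.5 (3 libraries each), of blastocysts paused by inhibition of mTOR, called mTORi (3 libraries each), and of normal blastocysts at E4.5, called WT (2 libraries each). The labels give no mutation, strain, drug name, drug dose, embryonic day of the mTORi embryos or number of embryos in a library, and diapaused and WT embryos differed in age as well as in state. For the mural mTORi group, the sample titles give no embryo part and join mTORi with diapaused, so its 3 libraries were placed by their tissue and treatment labels. Nothing in the labels says that the libraries of a group came from separate embryos, so p-values measure only the spread between these libraries.

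An intronic miRNA is transcribed as part of the messenger RNA precursor of its host gene, and the nuclear enzyme Drosha cuts the hairpin out of the intron before Dicer trims it to a duplex of 5p and 3p arms. One arm is usually kept in an Argonaute protein, where bases 2 to 8, the seed, pair with target messages, while the other arm is degraded. Such miRNAs often follow the transcription of their hosts, although many also have promoters of their own. Host messenger RNA was not measured in these libraries.

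Mature sequences were at hand for 4 of the 5 members, all but miR-378a-3p. These 4 share no seed with each other, so they are related by gene structure and not as a family. The seed of miR-378a-3p was not compared. Each of the 4 is printed 5′ to 3′ with its seed in capitals, from RefSeq on GRCm38.p6. The 5p arm of the miR-28a hairpin and its seed-sharing relative miR-708-5p are added because both arms of that hairpin were counted at similar levels.
miR-140-3p: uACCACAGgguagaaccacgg
miR-186-5p: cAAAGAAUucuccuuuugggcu
miR-340-5p: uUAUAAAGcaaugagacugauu
miR-28a-3p: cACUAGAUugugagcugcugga
miR-28a-5p: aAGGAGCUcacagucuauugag
miR-708-5p: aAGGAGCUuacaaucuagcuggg

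The RefSeq table matched 4 of the 5 members, and miR-378a-3p is given by name only. Among the listed names with a sequence, miR-140-3p shared its seed with miR-497b, which had 0 counts, and the seeds of miR-186-5p, miR-340-5p and miR-28a-3p occurred in no other name. miR-28a-5p shared its seed with miR-708-5p, which had 10 counts against 153 for miR-28a-5p.

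The hairpin of miR-340 shows where an arm lies in its precursor, with the counted 5p arm in capitals.
Mir340 hairpin: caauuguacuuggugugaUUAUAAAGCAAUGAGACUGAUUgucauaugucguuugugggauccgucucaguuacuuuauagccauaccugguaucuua

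The 5 hairpins lie on 5 chromosomes, each on the strand of its host (GRCm38, GENCODE M21). Mir140 lies at chr8:107551244-107551313 on the plus strand, in intron 16 of a transcript of Wwp2 with 24 exons, 114.879 kb into a gene of 122.231 kb. Wwp2 encodes a ubiquitin ligase, and miR-140 is best known from cartilage. Mir186 lies at chr3:157544279-157544349 on the plus strand, in intron 8 of Zranb2, which encodes a zinc-finger protein of RNA splicing. Mir340 lies at chr11:50069702-50069799 on the plus strand, in intron 2 of Rnf130, a RING-finger ubiquitin ligase gene. Mir28a lies at chr16:24827855-24827940 on the plus strand, in intron 8 of Lpp, which encodes a LIM-domain protein of cell adhesions. Mir378a lies on chromosome 18 on the minus strand, in intron 1 of Ppargc1b, 2.531 kb from the start of a gene of 102.296 kb. Ppargc1b encodes PGC-1β, a coactivator of mitochondrial genes, and miR-378a is known for roles in metabolism.

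**Figure D1:**
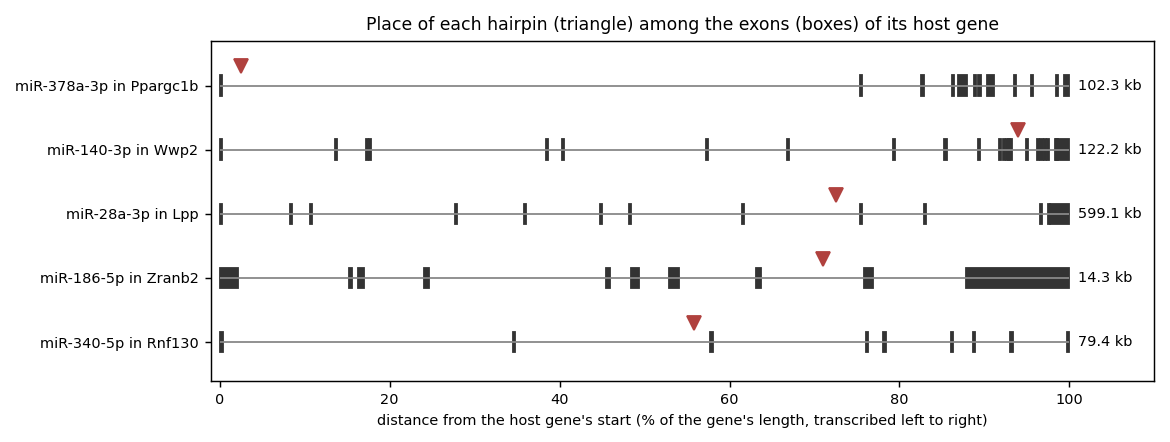
Place of each hairpin (triangle) within its host gene, with distance from the host's start as a percentage of gene length on the horizontal axis, exons of 1 transcript as boxes and the gene length in kb at the right. The hairpin of miR-378a lies 2.531 kb from the start of its host, and that of miR-140 lies 114.879 kb into a gene of 122.231 kb.

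The annotation met the description in full for 3 of the 5 hairpins. Mir186, Mir28a and Mir340 overlapped no exon of their hosts and had no other annotated miRNA gene within 10000 bases. Their nearest neighbours lay 4230.455 kb, 1716.997 kb and 162.446 kb away, in that order. Mir140 overlapped an exon of 1 of 11 Wwp2 transcripts, annotated as a retained intron, while its nearest miRNA gene was 289.644 kb away. Mir378a was overlapped by an annotated miRNA gene on the opposite strand, Gm25301, at a distance of 0 bases. By the same rule, 105 of the 465 detected names with a single placed hairpin were solo intronic miRNAs of coding hosts.

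The members were not equally abundant. Library totals ran from 9049 to 20051 counts in diapaused, from 2184 to 4386 in mTORi and from 1744 to 8366 in WT libraries. Levels are given as CPM, the count divided by the library's summed counts and scaled to 1e+06, over the 102 names that passed a filter on low counts. The sums were adjusted by TMM, a normalization that assumes most names do not change. miR-378a-3p ranked 20 and miR-140-3p ranked 35 of the 102 names by mean level, against ranks of 94 for miR-28a-3p, 95 for miR-186-5p and the last rank but one for miR-340-5p. How efficiently each sequence was ligated is not known, so ranks compare names only roughly. One library stood apart from its group. Polar mTORi replicate 3 had a chi-square of its counts, divided by the degrees of freedom, of 21.7 against replicate 1 and 16.9 against replicate 2, where no other pair of libraries of a group exceeded 7.82. Only miR-378a-3p and miR-140-3p were counted in all 16 libraries, against 14 for miR-186-5p, 13 for miR-28a-3p and 8 for miR-340-5p.

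All 5 members passed the filter, which asked for 1758 CPM in at least 2 libraries, but 3 of them passed through 1 or 2 groups. Here CPM is the count over the library's total of all names, before the TMM adjustment, so it differs from the levels given below. miR-340-5p reached it only in the 2 polar WT libraries, miR-186-5p in those 2 and 1 polar diapaused library, and miR-28a-3p in the 3 polar diapaused and 1 mural diapaused library. A difference in those groups is therefore partly built into their being tested. With 2 or 3 libraries in a group, groups can fail to overlap by chance, and the share of all names that do so is not given here. Statements below that libraries overlap, or lie above or below others, thus describe their order only.

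**Figure D2:**
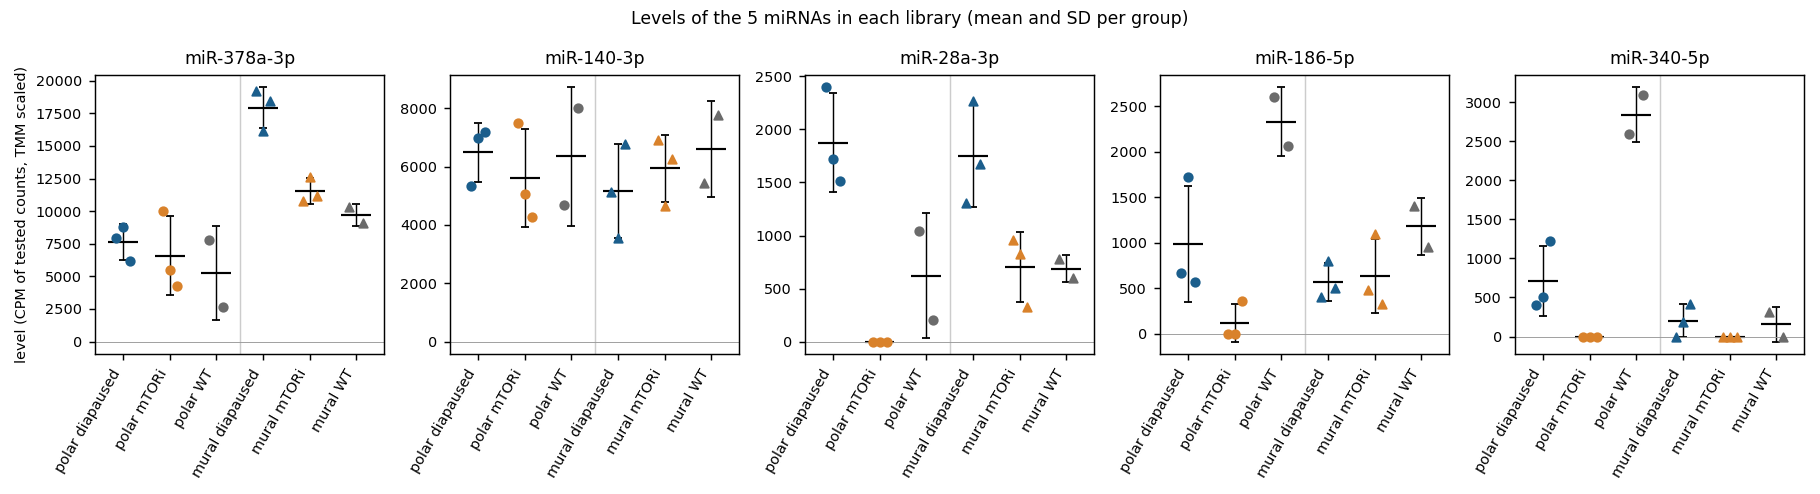
Level of each miRNA in each library (CPM of tested counts, TMM scaled, linear axes that differ between panels), with the group mean as a line and the SD as a bar. Circles are polar and triangles mural libraries. miR-340-5p is at 0 in all 6 mTORi libraries, and miR-378a-3p is highest in the 3 mural diapaused libraries (16175 to 19183 CPM).

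miR-378a-3p, the most abundant member, was higher in mural than in polar fragments. In polar libraries it stood at 7927, 8808 and 6141 CPM in diapaused, 10015, 5498 and 4275 CPM in mTORi, and 7785 and 2677 CPM in WT fragments. In mural libraries it stood at 19183, 16175 and 18435 CPM in diapaused, 10741, 12627 and 11179 CPM in mTORi, and 10282 and 9089 CPM in WT fragments. Within each treatment every polar library lay below every mural library, and the mural diapaused libraries lay above all others. In order of mean level the mural diapaused, mural mTORi, mural WT and polar diapaused groups did not overlap with their neighbours, while polar diapaused, polar mTORi and polar WT overlapped.

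Averaged over the 3 treatments, the polar-to-mural difference of miR-378a-3p was −1.01 on the log2 scale (SE 0.24; adjusted p = 0.00412, edgeR quasi-likelihood test, Benjamini-Hochberg over 102 names). It was the only member of 5 called in that comparison, in which 27.5% of all tested names were called. The call held in all 22 alternatives run for it, with log2 differences between −1.26 and −0.71. Within treatments the difference was −1.23 in diapaused (SE 0.36; adjusted p = 0.0260), −0.80 in mTORi (SE 0.39; adjusted p = 0.255) and −0.99 in WT fragments (SE 0.48; adjusted p = 0.204, edgeR). The diapaused call, again 1 of 5 members with 18.6% of all names called, was lost without any one of the polar diapaused libraries (adjusted p = 0.0751 without replicate 1, 0.0586 without replicate 2 and 0.103 without replicate 3). It was also lost with scaling by library size alone (log2 difference −0.77, adjusted p = 0.170) and with no filter on low counts (adjusted p = 0.0714). Over its 13 alternatives the adjusted p ran between 0.000375 and 0.170. The WT value rests on its 2 polar libraries, since it was −1.90 without polar WT replicate 1 (adjusted p = 0.0305) and −0.25 without polar WT replicate 2 (adjusted p = 0.698), the ends of the range over its alternatives. In mTORi and WT fragments 0 of 5 members were called between parts in edgeR, where 4.9% and 10.8% of all names were called. At an unadjusted p under 0.05 there was 1 member in each, beside 19 of 102 names in mTORi and 27 of 102 in WT fragments. DESeq2 called 0 members and 9 of 102 names in mTORi fragments, and 2 members (miR-340-5p and miR-378a-3p) and 21 of 102 names in WT fragments.

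The summed share of a list of mural markers was also higher in mural than in polar fragments within each treatment. The 5 names of the cluster of miR-322, miR-351 and miR-503, a list taken with earlier results of these counts known, were all detected in every group. Their summed share of counts was 0.696% to 1.45% in polar against 3.73% to 5.07% in mural diapaused libraries, 0.657% to 1.92% against 2.63% to 3.397% in mTORi, and 0.344% to 0.870% against 7.06% to 7.47% in WT. These shares were highest in mural WT libraries, whereas miR-378a-3p was highest in mural diapaused libraries. In mTORi fragments miR-351-5p went the other way, with a fitted polar-to-mural log2 difference of 0.37 (SE 0.59), while the other names of that list had negative differences there. The 5 names of the cluster of miR-302 and miR-367, known from epiblast and other pluripotent cells, were at 0 in every mural library. Their part in the miR-378a-3p difference was not tested, and in bulk samples fewer cells of a type and less RNA per cell cannot be told apart.

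Against WT, the log2 difference of miR-378a-3p was 0.65 in polar diapaused fragments (SE 0.45; adjusted p = 0.373) and 0.89 in mural diapaused fragments (SE 0.41; adjusted p = 0.221, edgeR), neither of which passed the test. The 3 mural diapaused libraries lay above both mural WT libraries, whereas the polar values lean on 1 library: without polar WT replicate 2 the polar difference was −0.19. In mTORi fragments the log2 difference from WT was 0.44 in polar (SE 0.47) and 0.25 in mural fragments (SE 0.41), and neither passed. Between mural diapaused and mural mTORi fragments the log2 difference was 0.64 (SE 0.36; adjusted p = 0.255, edgeR), with no overlap between the libraries.

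miR-140-3p had group means that lay closer together than those of the other 4 members. In polar libraries it stood at 5329, 6986 and 7180 CPM in diapaused, 7511, 5075 and 4275 CPM in mTORi, and 4671 and 8030 CPM in WT fragments. In mural libraries it stood at 5122, 3554 and 6788 CPM in diapaused, 6922, 4667 and 6247 CPM in mTORi, and 5452 and 7773 CPM in WT fragments. Every group overlapped the next in order of mean level, and the group means lay between 5154 and 6613 CPM. The log2 difference from WT was −0.01 in polar diapaused (95% interval −0.94 to 0.91), −0.37 in mural diapaused (−1.25 to 0.52), −0.21 in polar mTORi (−1.19 to 0.76) and −0.16 in mural mTORi fragments (−1.08 to 0.77). These intervals bound the change of miR-140-3p and do not show that it stayed the same. Without polar WT replicate 2 both polar differences changed sign.

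miR-28a-3p was most abundant in diapaused fragments of both parts. It stood at 2398, 1721 and 1512 CPM in polar diapaused, 0, 0 and 0 in polar mTORi, and 1038 and 206 CPM in polar WT libraries. In mural libraries it stood at 1306, 2267 and 1676 CPM in diapaused, 955, 824 and 329 CPM in mTORi, and 779 and 598 CPM in WT fragments. In each part all 3 diapaused libraries lay above every mTORi and WT library, and the polar and mural diapaused libraries overlapped. miR-28a-3p passed the filter only through diapaused libraries. This order and the calls given below for it are therefore partly built into its being tested.

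Averaged over both parts, miR-28a-3p was 1.65 higher on the log2 scale in diapaused than in WT fragments (SE 0.51; adjusted p = 0.0315, edgeR), the only one of 5 members called in a comparison with 18.6% of all names called. The call was kept in 4 of 16 alternatives, over which the adjusted p ran from 0.0355 to 0.390, and without polar WT replicate 2 the difference was 0.87 (adjusted p = 0.390). It was lost without 8 of the 10 libraries compared, and also with RLE scaling (adjusted p = 0.0664), scaling by library size alone (adjusted p = 0.0628), no filter (adjusted p = 0.368) and DESeq2 (adjusted p = 0.0674). Within parts the difference was 1.95 in polar (SE 0.81; adjusted p = 0.159) and 1.35 in mural fragments (SE 0.63; adjusted p = 0.230, edgeR). Without polar WT replicate 1 the polar difference was 3.06 (adjusted p = 0.0922), and without polar WT replicate 2 it was 0.69 (adjusted p = 0.773), the ends of the range over its alternatives. The polar comparison set 69 counts in diapaused libraries against 3 in WT libraries, a ratio of levels of 4.40 with a counting interval of 1.44 to 21.8. In these within-part comparisons 0 of 5 members were called, with 7.84% of all names called in polar and 9.8% in mural fragments, and 2 members in each had an unadjusted p under 0.05, beside 26 of 102 names in polar and 21 of 102 in mural fragments. DESeq2 called 0 of 5 in both, with 15 and 9 of 102 names called.

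Between the 2 forms of pausing, miR-28a-3p had more counts in polar diapaused than in polar mTORi fragments. It passed the filter only through diapaused libraries, so the call given here is partly built into its being tested. The 3 polar diapaused libraries held 69 counts and the 3 polar mTORi libraries held 0, which makes the level at least 5.17-fold higher in diapaused fragments when 3 counts are allowed over the mTORi group (adjusted p = 0.00654, edgeR). The exact 95% interval of that ratio, which also covers the counting error of the diapaused counts, begins at 4.09. It was 1 of 5 members called there, with 15.7% of all names called, and the call was lost when only the groups compared were fitted (adjusted p = 0.0667; over its 12 alternatives the adjusted p ran from 0.00453 to 0.0667). In mural fragments the diapaused libraries held 70 counts against 8 in mTORi libraries, a log2 difference of 1.26 (SE 0.61; adjusted p = 0.194, edgeR). There 0 of 5 members were called, with 0.98% of all names called, and 0 of 5 had an unadjusted p under 0.05, beside 26 of 102 names. DESeq2 called 0 of 5 and 9 of 102 names. Polar mTORi and polar WT fragments, with 0 and 3 counts, were both at or under the limit of 3 counts, so no fold is given between them. Depth moved with these groups, since polar mTORi libraries held 2184 to 3501 counts against 9049 to 14500 in polar diapaused libraries. The level of 3 counts was 377 CPM over the polar mTORi group, below each polar diapaused library.

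The other arm of the same hairpin, miR-28a-5p, is not among the 5 names, but its counts come from the same libraries and may have been in view when they were chosen. It stood at 2465, 1316 and 1417 CPM in polar diapaused, 0, 1692 and 1781 CPM in polar mTORi, and 0 and 824 CPM in polar WT libraries. In mural libraries it stood at 1105, 1287 and 1927 CPM in diapaused, 239, 1922 and 329 CPM in mTORi, and 623 and 837 CPM in WT fragments. The diapaused libraries again lay above the WT libraries in both parts, but they overlapped with the mTORi libraries. Its mean log2 difference from WT in diapaused fragments was 1.29 (SE 0.65; adjusted p = 0.208, edgeR), and between polar diapaused and polar mTORi fragments it was 0.62 (SE 0.80; adjusted p = 0.627, edgeR), neither of which passed the test. The arms thus differed in polar mTORi fragments, with 0 counts of miR-28a-3p against 9 of miR-28a-5p, all 9 of them in replicates 2 and 3.

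**Figure D3:**
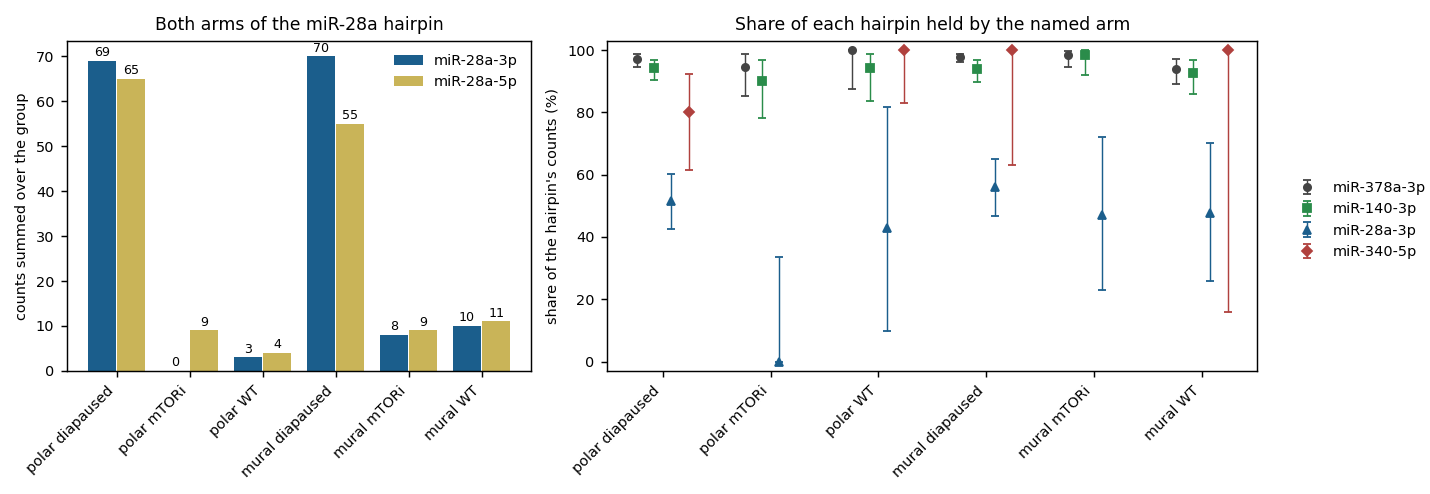
Left, counts of both arms of the miR-28a hairpin summed over each group. Right, share of each hairpin's counts held by the named arm (%), with exact 95% Clopper-Pearson intervals that cover counting error only; groups with no count of a hairpin have no point. Summed over a group, the miR-28a arms are near equal except in polar mTORi fragments, where the count is 0 against 9. Single libraries with few counts vary.

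The miR-28a hairpin differed from the other 4 in how its counts split between the arms. How efficiently each arm was ligated is not known, so shares of counts compare arms only roughly. Over all libraries miR-28a-3p held 51.1% of the 313 counts of its hairpin (95% Clopper-Pearson interval 45.4% to 56.8%). miR-378a-3p held 97.1% of 1332 counts (96.1% to 98.0%), miR-140-3p 94.0% of 716 (92.0% to 95.6%), miR-340-5p 90.0% of 60 (79.5% to 96.2%) and miR-186-5p all 96, which bounds its share at 96.2% or more. The miR-28a-3p share was 51.5% of 134 counts in polar diapaused (42.7% to 60.2%), 0% of 9 in polar mTORi (0 to 33.6%) and 42.9% of 7 in polar WT fragments (9.90% to 81.6%). In mural fragments it was 56.0% of 125 in diapaused (46.8% to 64.9%), 47.1% of 17 in mTORi (23.0% to 72.2%) and 47.6% of 21 in WT fragments (25.7% to 70.2%). The polar mTORi interval did not reach that of either diapaused group, but it rests on 9 counts, and no test across libraries was run. By library, the miR-28a-3p share was 100% and 20.0% in polar WT and 80.0%, 30.0% and 50.0% in mural mTORi fragments. miR-340-3p had 6 counts, all of them in polar diapaused replicates 1 and 2, where miR-340-5p had 6 and 5.

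miR-186-5p was highest in polar WT fragments and had 1 count in polar mTORi fragments. It stood at 666, 1721 and 567 CPM in polar diapaused, 0, 0 and 356 CPM in polar mTORi, and 2595 and 2059 CPM in polar WT libraries. In mural libraries it stood at 402, 797 and 502.8 CPM in diapaused, 477, 1098 and 329 CPM in mTORi, and 1402 and 957 CPM in WT fragments. Both polar WT libraries lay above all other libraries, and each polar mTORi library lay below every polar diapaused and polar WT library. In mural fragments the diapaused libraries lay below the WT libraries, and the mTORi libraries overlapped with both. Polar mTORi libraries held 1 count against 7 in mural mTORi libraries, a ratio of levels of 0.195 with a counting interval of 0.00433 to 1.52. The level of 3 counts was 377 CPM over the polar mTORi group.

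The 3 polar mTORi libraries held 1 count of miR-186-5p against 15 in the 2 polar WT libraries, a ratio of levels of 0.0568 with a counting interval of 0.00135 to 0.369. The fitted log2 difference was −4.00 (SE 1.13; adjusted p = 0.0187, edgeR), and miR-186-5p was 1 of 2 members called in polar mTORi against polar WT fragments, where 22.5% of all names were called. The name passed the filter only through the 2 polar WT libraries and 1 polar diapaused library. This call is therefore partly built into its being tested. The 1 count lay in polar mTORi replicate 3, without which the group held 0 and the adjusted p was 0.0256. With the other polar libraries left out in turn the difference lay between −4.36 and −3.45. The call was lost without either polar WT library (adjusted p = 0.0623 without replicate 1 and 0.0662 without replicate 2), with no filter (adjusted p = 0.0573) and with only the 2 groups fitted (adjusted p = 0.214). Over its 11 alternatives the adjusted p ran from 0.0157 to 0.214. In mural mTORi fragments the log2 difference from WT was −0.85 (SE 0.80; adjusted p = 0.647, edgeR), and 0 of 5 members were called with 11.8% of all names called; 0 of 5 had an unadjusted p under 0.05, beside 28 of 102 names, and DESeq2 called 0 of 5 and 14 of 102 names. Averaged over both parts it was −2.42 (SE 0.71; adjusted p = 0.0179, edgeR), the only one of 5 members called in a comparison with 32.4% of all names called. That call was lost without mural WT replicate 1 (adjusted p = 0.0527) and held in the other 15 alternatives, with adjusted p from 0.0121. Without polar mTORi replicate 3 the fitted difference was −3.99 (adjusted p = 0.0130), a value that rests on a polar group of 0 counts. The effect of mTORi was not shown to differ between polar and mural fragments for any member, since 0 of 102 names passed the edgeR test of that difference. At an unadjusted p under 0.05 there were 14 names, and DESeq2 called 1. Of the 14, 2 were members, miR-28a-3p and miR-186-5p, with 0 and 1 counts in polar mTORi libraries.

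In diapaused fragments the log2 difference of miR-186-5p from WT was −1.22 in polar (SE 0.69; adjusted p = 0.276) and −0.98 in mural diapaused fragments (SE 0.68; adjusted p = 0.520, edgeR), and neither passed. Polar diapaused libraries held 33 counts against 1 in polar mTORi libraries, a ratio of levels of 7.41 with a counting interval of 1.24 to 302 (adjusted p = 0.0973, edgeR). In mural fragments the diapaused and mTORi libraries overlapped, with a log2 difference of −0.14 (SE 0.76; adjusted p = 0.988, edgeR). The difference between parts of the diapaused effect was called for 0 of 102 names in edgeR, with 12 at an unadjusted p under 0.05 and 0 called by DESeq2.

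miR-340-5p was highest in polar WT fragments and was not detected in mTORi fragments of either part. It stood at 400, 506 and 1228 CPM in polar diapaused, 0, 0 and 0 in polar mTORi, and 2595 and 3088 CPM in polar WT libraries. In mural libraries it stood at 0, 184 and 419 CPM in diapaused, 0, 0 and 0 in mTORi, and 312 and 0 CPM in WT fragments. The 2 polar WT libraries lay above all others, and in mural fragments the diapaused and WT libraries overlapped. The polar diapaused libraries lay between the polar WT libraries and the 6 mTORi libraries at 0. The polar mTORi libraries were shallower, so their values of 0 do not by themselves show a lower level than in polar diapaused libraries. Polar diapaused libraries held 24 counts against 0 in polar mTORi libraries, and the exact 95% interval of that ratio of levels begins at 1.35. This difference did not pass the test (adjusted p = 0.142, edgeR).

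The 3 polar mTORi libraries held 0 counts of miR-340-5p against 20 in the polar WT libraries, a level at least 7.83-fold lower when 3 counts are allowed over the mTORi group (adjusted p = 0.0237, edgeR). The exact 95% interval of that ratio, which also covers the counting error of the WT counts, begins at 5.80-fold lower. This was the other of the 2 members called there. miR-340-5p passed the filter only through the 2 polar WT libraries, so the call is partly built into its being tested. The call was lost without polar WT replicate 1 (adjusted p = 0.0623), without polar WT replicate 2 (adjusted p = 0.0998) and with only the 2 groups fitted (adjusted p = 0.171), and over its 11 alternatives the adjusted p ran from 0.00845 to 0.171. In mural fragments, with 0 counts in mTORi and 2 in WT libraries, a difference was not detectable at this depth. A count of 0 allows up to 0.0343% of the 8746 counts of the polar mTORi libraries and up to 0.0261% of the 11489 counts of the mural mTORi libraries.

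Polar diapaused libraries held 24 counts of miR-340-5p against 20 in the shallower polar WT libraries, a ratio of levels of 0.229 with a counting interval of 0.121 to 0.438. The fitted log2 difference was −2.02 (SE 0.91; adjusted p = 0.179, edgeR), which did not pass the test. Between parts, polar WT libraries held 20 counts against 2 in mural WT libraries, a ratio of levels of 21.8 with a counting interval of 5.29 to 192 (adjusted p = 0.0515, edgeR). That value missed the threshold, and it passed with DESeq2 (adjusted p = 0.0400), with only the 2 groups fitted (adjusted p = 0.00312) and with treatment and replicate number as a block (adjusted p = 0.0175). Over its 11 alternatives the adjusted p ran from 0.00312 to 0.248. miR-340-5p passed the filter only through the 2 polar WT libraries, so these differences from polar WT levels are partly built into its being tested. In diapaused fragments the polar libraries held 24 counts against 8 in mural libraries, a log2 difference of 1.67 (SE 0.93; adjusted p = 0.247, edgeR).

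Among marker lists of other cells, the summed share of the miR-302 and miR-367 names was higher in both polar WT libraries than in any polar mTORi library. These are the groups in which miR-186-5p and miR-340-5p were called. The 5 names of the cluster of miR-302 and miR-367 summed to 0.0210% to 0.0884% of counts in polar diapaused, 0 to 0.0916% in polar mTORi and 0.142% to 0.401% in polar WT libraries. Within the list, miR-302c-3p was at 0 in all 3 groups. miR-302a-3p went the other way, since it held the only 2 counts of the list in polar mTORi libraries and was at 0 in polar WT libraries. A list of 4 erythroid names held 0.0207% to 0.166% in polar diapaused, 0 to 0.275% in polar mTORi and 0.115% to 2.41% in polar WT libraries, so that only 1 of the 2 WT libraries lay above the mTORi libraries; miR-486a-5p was at 0 in all 3 groups. A list of 5 leukocyte names held 0.0105% to 0.0828% in polar diapaused, 0.0327% to 0.366% in polar mTORi and 0.115% to 0.344% in polar WT libraries, and the mTORi and WT libraries overlapped. So did those of the stromal list (0.0653% to 0.321% in mTORi and 0.0573% to 0.101% in WT), of the endothelial list (0 to 0.0571% and 0 to 0.121%) and of the liver name miR-122-5p (0 to 0.0458% and 0 to 0.101%). The part of these markers in the differences was not tested.

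**Figure D4:**
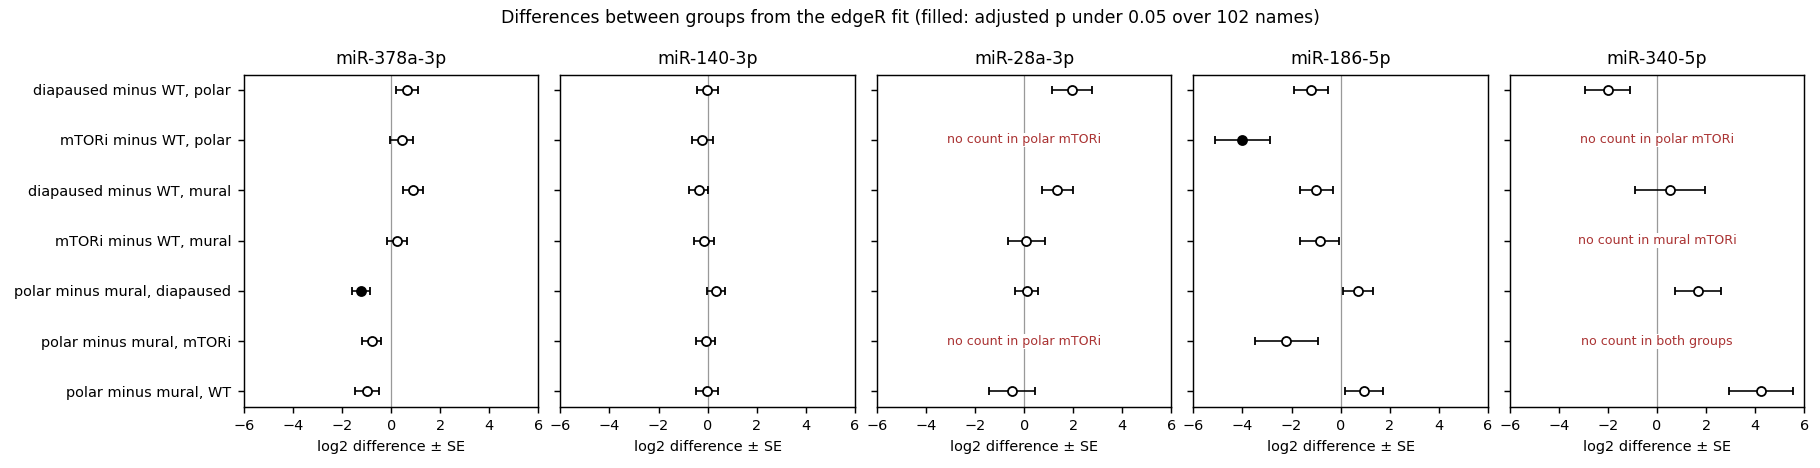
Log2 difference of each miRNA in 7 comparisons (points, with SE as bars) from the edgeR fit over 102 names; filled points passed an adjusted p of 0.05, and text marks a group with no count, for which no fold is drawn. miR-378a-3p lies below 0 in the 3 polar-to-mural comparisons, with −1.23 in diapaused fragments, and miR-186-5p lies at −4.00 in polar mTORi against polar WT fragments.

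As a list the members shared no direction in diapaused against WT fragments. No direction of the list is drawn from mTORi against WT fragments either, since some of the negative differences there rest on very few counts or lie near 0. In polar diapaused against polar WT fragments 2 of the 5 fitted differences were positive and 3 negative, with a median of −0.01, beside a median of 0.10 over all 102 names. In mural diapaused against mural WT fragments 3 were positive and 2 negative, with a median of 0.53 beside 0.19 over all names. In polar mTORi against polar WT fragments 1 was positive and 4 negative, with a fitted median of −4.00, or −0.23 with miR-340-5p and miR-28a-3p at 3 counts over the mTORi group, beside 0.18 over all names. In mural mTORi against mural WT fragments 2 were positive and 3 negative, with a median of −0.16 beside −0.06, and averaged over parts 1 was positive and 4 negative. In polar diapaused against polar mTORi fragments all 5 were positive, with a fitted median of 2.79, or 0.85 at 3 counts, beside 0.12, and 1 of them was called. Of the negative mTORi differences from WT, that of miR-28a-3p in polar fragments rests on 0 against 3 counts, and that of miR-340-5p in mural fragments on 0 against 2. That of miR-140-3p in polar fragments was −0.21 (SE 0.44). The share of each sign over all names is not given here, so the signs describe the members only. The comparisons above share their mTORi or WT libraries. The 10 pairwise Pearson correlations of their log2 levels over the 16 libraries ran from −0.45, between miR-340-5p and miR-378a-3p, to 0.67, between miR-186-5p and miR-340-5p, with a median of 0.09. These describe libraries that share treatments and depth and carry no test.

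The names whose levels over the 16 libraries were most like those of each member differed from member to member. For miR-378a-3p they were miR-200c-3p (Pearson r = 0.79, Spearman rho = 0.79) and miR-322-5p (0.74 and 0.86). For miR-340-5p they were miR-93-5p (0.78 and 0.82) and miR-672-5p (0.77 and 0.64), and for miR-28a-3p miR-1981-5p (0.83 and 0.85) and miR-298-5p (0.67 and 0.51). For miR-186-5p they were miR-18a-5p (0.67 and 0.64) and miR-340-5p (0.67 and 0.69). The nearest names to miR-140-3p were only loosely alike, miR-743a-3p at 0.61 and 0.36 and miR-743b-3p at 0.58 and 0.62.

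Other solo intronic miRNAs of coding hosts moved in both directions too. The same annotation rule gave 13 further names among the 102 tested, led by miR-10b-5p in Hoxd4, miR-26b-5p in Ctdsp1, miR-101b-3p in Rcl1, let-7g-5p in Wdr82, miR-2137 in Zfp185 and miR-672-5p in Nexmif. In polar mTORi against polar WT fragments 3 of the 13 were called higher and 1 lower, with a median log2 difference of 0.58, where 12.7% of all names were called higher and 9.8% lower. miR-10b-5p was 3.02 higher (SE 0.44; adjusted p = 0.000257), while the log2 difference of miR-672-5p was −3.35 (SE 0.64; adjusted p = 0.00339, edgeR). In polar diapaused against polar WT fragments 2 of the 13 were called higher and 1 lower, where 5.88% of all names were called higher and 1.96% lower, with miR-10b-5p at 2.05 (SE 0.42; adjusted p = 0.00653) and miR-672-5p at −2.43 (SE 0.55; adjusted p = 0.00885, edgeR).

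Close relatives of the members were nearly absent. miR-28b and miR-28c had 0 counts, while miR-378b, miR-378c and miR-378d had 2, 7 and 3 counts against 1294 for miR-378a-3p. How reads that match several such names were assigned is not given in the sources used here. The minor arms miR-140-5p and miR-378a-5p had 43 and 38 counts over all libraries and miR-186-3p had 0, too few to be tested.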

How the data were processed

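The deposited files hold counts per mature miRNA name, 1 file per library, as whole numbers that the authors did not normalize. Per the labels' protocols, adapters with unique molecular identifiers were ligated without size selection, 12 to 20 PCR cycles were run, and single reads of 75 bases were taken. The build GRCm38 comes from the submitters' processing notes. Which aligner and counter were used, and whether reads with 1 identifier were merged, is not given in the sources used here, so intervals and floors cover counting error only.

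The members and all lists were chosen with earlier results of these data known. Libraries were grouped by their labels. Counts were fitted with edgeR 4.0.16 (R 4.3.3) by the quasi-likelihood test, with TMM scaling, filterByExpr (minimum count 10, minimum total 15) and 1 mean per group over 16 libraries (10 residual degrees of freedom). P-values were two-sided and adjusted by Benjamini-Hochberg over 102 names in each of 14 contrasts, with calls at 0.05. Each SE was derived from the test, as the absolute log2 difference over the square root of its F statistic. The 95% intervals of log2 differences used these SEs with the 10 residual degrees of freedom, without the 7.13 prior degrees of freedom of the fit. The fit was tested on simulated data. Alternatives were RLE scaling, library size alone, no filter, DESeq2 1.42.0, only the groups compared, replicate blocks and each library left out, the last with the same 102 names. A group of 0 counts was set to 3 counts over the group for a bound. Ratios of counts have exact 95% intervals, and shares have Clopper-Pearson intervals. Named were the members, their other arms, seed-sharing names and relatives, the 2 names most correlated with each member, and up to 6 of the other solo intronic names by mean level. Positions come from GENCODE M21 and sequences from RefSeq. Every pair of libraries of 1 group differed beyond sampling noise (chi-square per degree of freedom 2.00 to 21.7). The sample labels used here name no pairs. Same-numbered polar and mural libraries correlated at 0.16, 0.11 and 0.18 in mTORi, each above the highest value with another mural library (−0.03, 0.01 and −0.08). In diapaused fragments they correlated at 0.11, −0.01 and 0.36, and replicates 1 and 2 lay below that value (0.18 and 0.17). In WT fragments the value was 0.31 against −0.31, but with 2 libraries in a group these mirror each other and cannot decide. Pairing is thus not established for any group.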

Additional observations from a re-analysis of the deposited data

How the results depend on the processing

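Of 339 alternative values for 28 log2 differences, 301 kept their direction and side of the threshold, 26 lost a call, 5 gained one and 7 changed sign. The count of members called in mTORi against WT fragments, 2 in polar, was 1 with no filter and 0 with only the groups compared. Averaged over parts, the diapaused count of 1 was 0 with RLE scaling, library size alone, no filter or DESeq2, and the mTORi count of 1 was 2 with no filter or DESeq2. Between parts, the WT count of 0 was 2 with DESeq2 and 1 with only the groups compared or the replicate block of treatment and number, the diapaused count of 1 was 0 with library size alone or no filter, and the count of 1 over all treatments was 2 with RLE scaling. The polar diapaused against mTORi count of 1 was 0 with only the groups compared. With libraries left out, counts ran from 0 to 2 for polar mTORi and for both averages over parts. They ran from 0 to 1 between parts in WT and in diapaused fragments, and from 1 to 2 between parts over all treatments. The share of all names called is not given beside each of these counts, so they describe the settings only. Signs changed for miR-140-3p with library size alone (0.077 in polar diapaused). With libraries left out, its difference ran from −0.35 to 0.31 for diapaused polar fragments, −0.57 to 0.094 for mTORi polar and −0.38 to 0.13 for mTORi mural fragments, while that of miR-378a-3p ran from −0.19 to 1.46 for diapaused polar and −0.42 to 1.23 for mTORi polar fragments. The causes were not tested. The replicate number as a block changed no count of members called. Between parts in mTORi libraries the block of treatment and number called 0 members, as without it, and in WT fragments it called 19 names against 11. RLE scaling moved the median of all names by −0.14 in polar and −0.22 in mural diapaused against WT fragments, and library size alone moved it by 0.46 between parts in diapaused fragments. Over all tested names, the counts called that moved by more than 1.5 times were, with only the groups compared, 0 against 23 in polar and 23 against 12 in mural mTORi against WT, 17 against 33 in its average over parts, 2 against 16 and 9 against 1 in polar and mural diapaused against mTORi, and 0 against 5 between parts in mTORi. With DESeq2 they were 15 against 8 in polar diapaused against WT, 9 against 1 in mural diapaused against mTORi, and 21 against 11 in WT and 9 against 5 in mTORi fragments between parts. RLE scaling called 5 against 10 in mural diapaused against WT and 5 against 1 in mural diapaused against mTORi, library size alone called 5 and 4 there, and no filter called 6 in the last of these and 9 against 5 between parts in mTORi. For the difference between parts of the mTORi effect, no filter called 6 names, none of them a member, against 0. Depth limits miR-186-5p, miR-28a-3p and miR-340-5p most, since 3 counts stood for 377 CPM over the polar mTORi and 442 CPM over the polar WT libraries.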
